A study of Sus scrofa with 63 samples.

Results

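The genes described here belong to fatty acid oxidation and ketogenesis, read in the fetal jejunum of pigs shortly before birth. The list held 38 genes, named for their place in the pathway. Of these, 36 had at least 1 probe carrying their name on the array, with 123 probes among them. ECI1 and BDH1 had no probe by that name and were dropped. Only probes whose signal cleared the background in 75% or more of the fetuses of some group entered the tests. This held for 116 of the 123 member probes and for all 36 genes, out of 40515 tested probes among 60305 on the array. The gene name field of the array held 39175 distinct names, many of them transcript accessions. The 7 untested probes belonged to CPT1A (3 probes), ACSL4 (2 probes), PPARA and DECR1.

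Each array carried jejunal RNA of 1 male fetus, 63 fetuses in all. Large White (LW) and Meishan (MS) sows had been inseminated with mixed semen of both breeds, so that litters held purebred and crossbred fetuses. LWMS fetuses had an LW sire and an MS sow, and MSLW fetuses an MS sire and an LW sow. At day 90 of gestation there were 9 LW, 6 MS, 9 LWMS and 8 MSLW fetuses, and at day 110 there were 9 LW, 7 MS, 9 LWMS and 6 MSLW fetuses. The comparisons address maturation between the days and the contrast between a breed with better survival at birth (MS) and one with poorer survival (LW). Which sow bore which fetus did not enter the fit, so that litter mates count as independent and p-values may be too small. Values are log2 signals minus the 75th percentile of their array, so a negative value is below that percentile. They compare fetuses at 1 probe and not one gene with another.

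Fatty acids are bound to coenzyme A by acyl-CoA synthetases before they are burned. Long chains then enter mitochondria through the carnitine shuttle and are shortened by beta-oxidation, whose electrons pass through the electron transfer flavoprotein to the respiratory chain. Peroxisomes run a separate beta-oxidation for very long chains, branched chains and bile acid side chains, which yields hydrogen peroxide that catalase removes. Ketone bodies are made from the acetyl-CoA that is formed, and PPARA is the nuclear receptor that switches on many genes of both arms.

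Probes of 60 bases stand for the genes, and several genes are read by more than 1 probe. Those with the clearest differences are shown first, 5′ to 3′ as the array files give them, to make plain which stretch of the transcript was read. The enzymes of the peroxisomal arm that follow are EHHADH, with both its probes, ACAA1, ACOX2 (its second probe) and CAT (1 of 10 probes). ACAA2 and ACAT1 are thiolases of mitochondria, as is HADHB, which is described further on, and ECI2 is an isomerase for unsaturated chains.
EHHADH, A_72_P213592: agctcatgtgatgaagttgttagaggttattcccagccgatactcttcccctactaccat
EHHADH, O9867: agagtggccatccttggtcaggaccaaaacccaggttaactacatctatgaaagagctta
ACAA1, O14450: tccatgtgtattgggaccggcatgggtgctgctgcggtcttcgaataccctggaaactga
ACOX2, O9317: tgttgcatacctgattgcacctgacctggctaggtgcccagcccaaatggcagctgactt
CAT, A_72_P643147: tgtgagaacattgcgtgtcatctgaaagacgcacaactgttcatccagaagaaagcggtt
ACAA2, A_72_P056271: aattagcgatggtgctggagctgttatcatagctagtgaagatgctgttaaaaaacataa
ACAT1, A_72_P414863: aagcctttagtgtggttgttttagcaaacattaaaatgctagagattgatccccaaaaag
ECI2, A_72_P216272: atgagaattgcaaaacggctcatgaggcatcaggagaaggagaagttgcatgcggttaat
The 2 EHHADH probes share no stretch of 15 bases and so read the transcript at separate places. In CAT, ACADS, ACADL, CPT1B, CRAT, ACSL4, ETFA, ECHS1 and HADHA some probes overlap, and 3 pairs have the same 60 bases. Probes of a gene are therefore no independent measurements, and each gene is represented below by its brightest tested probe unless another is named.

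Between day 90 and day 110, the peroxisomal enzymes EHHADH, ACAA1 and ACOX2 and the peroxide-removing CAT rose in the mean over the 4 genotypes. ACAA2 and ACAT1, thiolases of mitochondria, fell. ACOX2 did not rise in MSLW. A difference between days counted as a change when its size was 0.5 or more on the log2 scale and its adjusted p no more than 0.01, in the mean over the 4 genotypes. On this rule 6 of 36 genes changed, 4 higher and 2 lower, and 26 of 36 had a difference above 0. Over probes, 20 of 116 changed (17.2%), of which 17 were higher and 3 lower, and 9 of the 17 read CAT. Among all tested probes 13.8% changed, 6.07% higher and 7.71% lower. Without the minimum size, 36 of 116 member probes and 28.5% of all probes passed. The share of member probes that changed was thus close to that of the array, while the median difference was 0.21 for the member probes and -0.02 for all tested probes. When each array was centred on its median instead, 20 member probes were higher and 0 lower, because the lower probes of ACAA2 (-0.50), ACAT1 (-0.48) and CPT1B (-0.49) no longer reached the minimum size. That centring also moved the median of all tested probes from -0.02 to 0.03. How all probes split under it is not given here, so the member split is not read further.

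**Figure D1:**
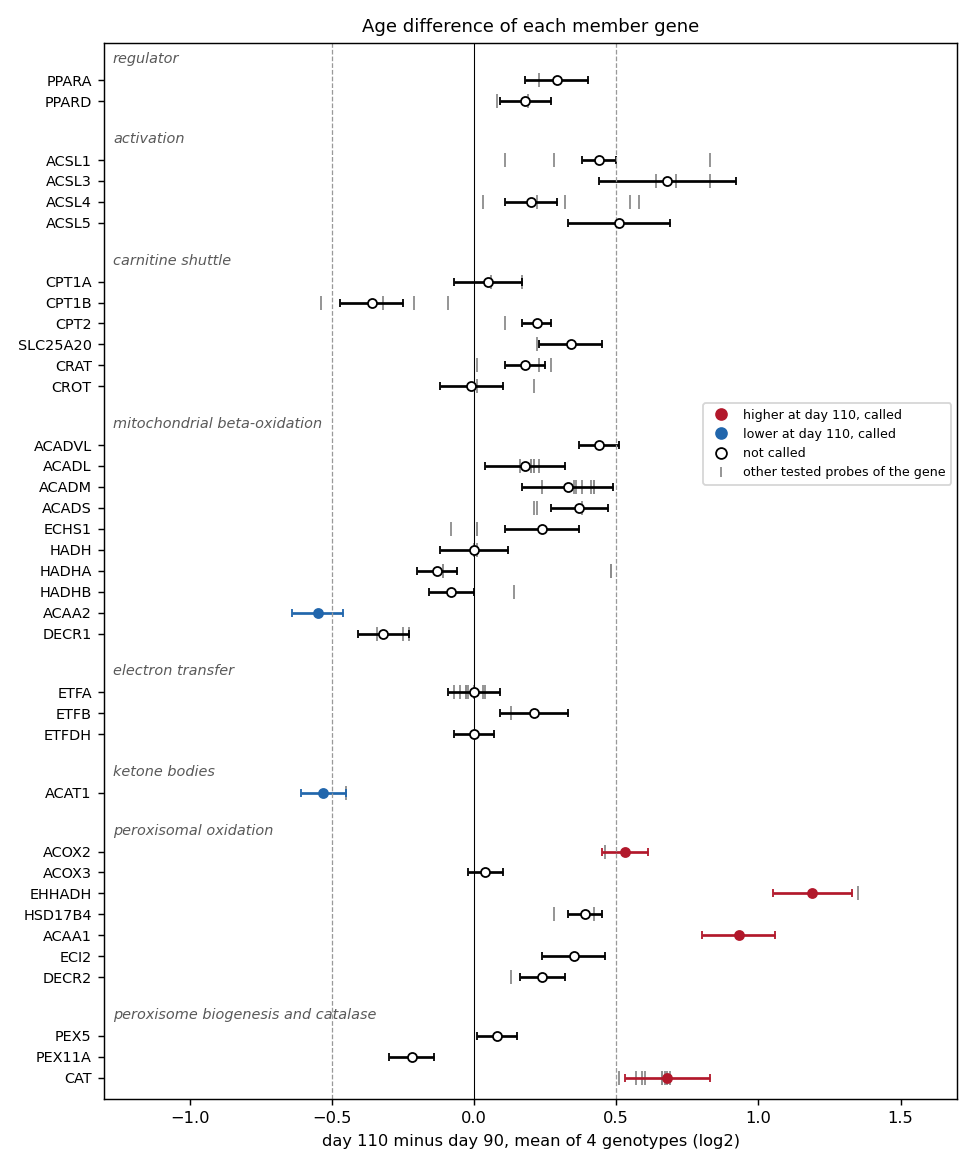
Day 110 minus day 90 (log2, mean of the 4 genotypes, 63 fetuses) for the 36 genes, ordered by role. Circles are the brightest probe with its standard error, grey ticks the other tested probes, and dashed lines the minimum size of 0.5. EHHADH (1.19) and ACAA1 (0.93) lie farthest to the right, and ACAA2 (-0.55) and ACAT1 (-0.53) farthest to the left.

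The arrays stood for whole jejunum, in which more cells of a type and more RNA per cell cannot be told apart. Of 11 measured enterocyte markers, 4 rose between the days and 2 fell, and their summed level went from 9.34 to 10.62 (median 10.03) at day 90 to 8.50 to 11.42 (median 10.74) at day 110. SI, a defining marker of mature enterocytes, was well above background on 24 of 63 arrays and rose by 1.67, a size that is uncertain near the floor. In the same contrast 2 of 6 fibroblast, 2 of 7 neuron and glia, 1 of 8 smooth muscle, 2 of 2 erythroid and 1 of 4 proliferation markers fell, 1 of 6 leukocyte markers rose, and 0 of 5 endothelial and 0 of 3 adipocyte markers passed. Their part in the member differences was not tested. Between 51.2% and 87.6% of probes were well above background per array, and 4 arrays had a median correlation with the others under 0.94 (LW 484 and MS 532 of day 90, LW 469 and MS 632 of day 110). Without these 4 arrays, 29 member probes and 15% of all tested probes changed between days.

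EHHADH, the bifunctional enzyme that carries out the middle steps of peroxisomal beta-oxidation, had the largest difference of the 36. In LW fetuses the lowest, median and highest values were -3.07, -2.47 and -1.35 at day 90 and -2.34, -1.74 and -0.41 at day 110. MS fetuses read -2.39, -1.85 and -0.75 at day 90 and -1.81, -0.60 and -0.08 at day 110. The days overlapped in both pure breeds, and in MS through 1 low fetus at day 110. LWMS fetuses went from -2.88, -1.98 and -1.29 to -1.36, -0.68 and 0.09, again with overlap by a narrow margin. In MSLW, where the values were -2.43, -1.94 and -1.08 at day 90 and -0.97, -0.42 and 0.09 at day 110, the days did not overlap. Averaged over genotypes, EHHADH was 2.27-fold higher at day 110 (log2 difference 1.19 ± 0.14 SE, limma adjusted p = 3.41e-10). The second probe gave 1.35 (limma adjusted p = 9.51e-13), and the difference was positive on 8 of 8 slides, between 0.73 and 1.55.

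ACAA1, the peroxisomal thiolase that closes each round, was read by 1 probe. LW fetuses had lowest, median and highest values of 2.95, 3.16 and 3.90 at day 90 and 2.66, 3.96 and 4.70 at day 110, and MS fetuses 2.97, 3.13 and 3.79, then 2.54, 4.26 and 4.92. At day 110 both pure breeds thus spread above their day 90 range. Only the lowest fetus of each breed lay below it, with the next at 3.01 in LW and 3.59 in MS. In MS the lowest was fetus 632, the array of lowest correlation with the others. LWMS values were 2.86, 3.48 and 3.75 at day 90 and 3.53, 4.52 and 4.98 at day 110. MSLW values were 2.85, 3.14 and 3.52 at day 90 and 3.77, 4.50 and 4.97 at day 110, with no overlap. The mean difference was 0.93 ± 0.13 SE, a 1.91-fold rise (limma adjusted p = 2.14e-08), and was positive on 8 of 8 slides.

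CAT, which breaks down hydrogen peroxide, had a wider range at day 110 than the other 5 genes that changed. LW fetuses ranged from 3.94 to 4.72 around a median of 4.28 at day 90 and from 3.08 to 5.57 around 4.87 at day 110. For MS fetuses the range went from 4.23 to 4.80 (median 4.54) to 2.91 to 5.92 (median 4.93). LW therefore held several day 110 fetuses under all its day 90 fetuses. In MS only fetus 632 lay there, with the next at 4.58. LWMS fetuses ranged from 4.21 to 4.89 (median 4.49) and later from 4.10 to 6.0 (median 5.66). MSLW fetuses, at 3.65 to 4.35 (median 4.11) and then 4.59 to 5.70 (median 5.33), did not overlap between days. The mean difference was 0.68 ± 0.15 SE (1.60-fold, limma adjusted p = 2.72e-04). All 10 CAT probes were higher at day 110, by 0.51 to 0.69, and 9 passed. The exception, A_72_P686566, differed by 0.51 with an adjusted p of 0.0227 from limma.

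ACOX2 starts the peroxisomal shortening of branched chains and bile acid precursors. Its mean difference was 0.53 ± 0.08 SE (1.44-fold, limma adjusted p = 2.54e-07), just past the minimum size, and 0.46 at the second probe. Without the lowest day 90 fetus of MS (827) it was 0.48, below the minimum. By genotype, ACOX2 passed in MS (0.96) and LWMS (0.74). Its median went from 0.83 to 1.30 in LW, which did not pass, and from 0.66 to 0.54 in MSLW. Of the other peroxisomal members, HSD17B4, the D-bifunctional protein, was higher by 0.39 ± 0.06 SE (limma adjusted p = 2.16e-06) and missed the minimum size. Its day 90 medians were 1.85 in LW (range 1.66 to 1.96), 1.95 in MS (range 1.53 to 2.20), 1.84 in LWMS (range 1.55 to 2.10) and 1.85 in MSLW (range 1.59 to 1.98). At day 110 they were 1.95 (range 1.61 to 2.38), 2.28 (range 1.53 to 2.58), 2.45 (range 2.06 to 2.61) and 2.36 (range 1.81 to 2.65), with overlap of the days in every genotype. ECI2 was higher by 0.35, DECR2, a reductase for unsaturated chains, by 0.24 and ACOX3 by 0.04. In all, 3 of the 7 enzymes of peroxisomal oxidation rose and none fell. Of all tested probes 6.07% were higher and 7.71% lower. ACOX2, 1 of the 3, did not reach the minimum size under 5 of 14 alternatives. PEX5, the import receptor for matrix proteins (0.08), and PEX11A, which takes part in peroxisome division (-0.22), did not pass.

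Within mitochondrial beta-oxidation, 1 of 10 measured enzymes fell and none rose at the brightest probe with all fetuses. The shares of all tested probes were 7.71% lower and 6.07% higher. ACAA2, the thiolase of the matrix, had medians of 2.01 in LW, 1.82 in MS, 1.80 in LWMS and 1.59 in MSLW at day 90, against 1.31, 1.33, 1.29 and 1.1 at day 110. All 4 medians were lower at day 110, and only in LWMS did the days not overlap, with 1.67 to 2.28 at day 90 and 0.32 to 1.63 at day 110. ACAA2 fell by 0.55 (0.09 SE, 1.46-fold, limma adjusted p = 9.11e-07) and was lower on 7 of 8 slides. The acyl-CoA dehydrogenases, which take the first step for chains of different length, lay on the other side of 0 but under the minimum size. ACADVL, for very long chains, ranged from 1.08 to 2.02 (median 1.42) at day 90 and from 1.11 to 2.48 (median 2.01) at day 110, a difference of 0.44 ± 0.07 SE (limma adjusted p = 1.68e-06). By genotype its medians went from 1.42 to 1.87 in LW, from 1.63 to 2.23 in MS, from 1.42 to 2.05 in LWMS and from 1.39 to 1.95 in MSLW. ACADS differed by 0.37 (limma adjusted p = 0.00253), ACADM by 0.33 and ACADL by 0.18. Dimmer ACADM probes passed at 0.51 to 0.53 without MS fetus 632 of day 110. DECR1, the mitochondrial counterpart of DECR2, differed by -0.32 (limma adjusted p = 0.00304). HADH, HADHB, ECHS1 and the 3 electron transfer genes ETFA, ETFB and ETFDH lay between -0.08 and 0.24, with adjusted p from 0.122 upward in limma.

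HADHA, the alpha subunit of the trifunctional protein, gave differing answers by probe. Its brightest probe and a further pair lay at -0.13, -0.11 and -0.11. The other pair, A_72_P092111 and A_72_P736892, were both 0.48 higher at day 110, with limma adjusted p of 0.0142 and 0.00844. Without the 4 arrays of low correlation this pair passed, at 0.56 and 0.54. These 2 probes cover nearly the same stretch and differ from each other at 1 base of the 57 they share, C21G, where the position counts from the 5′ end of A_72_P092111, the first letter is its base and the last letter that of A_72_P736892. The base is in capitals.
HADHA, A_72_P092111: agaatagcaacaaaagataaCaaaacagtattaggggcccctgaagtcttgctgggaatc
HADHA, A_72_P736892: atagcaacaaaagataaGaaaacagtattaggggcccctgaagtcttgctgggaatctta
The pair also differed by sire, 0.55 and 0.46 higher in fetuses of MS sires, which the other 3 probes, at 0.02 to 0.06, were not. The level of HADHA is therefore given with no direction.

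ACAT1, the mitochondrial acetoacetyl-CoA thiolase of ketone body metabolism, fell. Medians at day 90 were 3.20 in LW, 3.32 in MS, 3.28 in LWMS and 3.06 in MSLW, and at day 110 they were 2.61, 3.05, 2.84 and 2.46. Values over all fetuses ran from 2.75 to 3.86 at day 90 and from 1.94 to 3.35 at day 110, so that the days overlapped although each median was lower at day 110. ACAT1 fell by 0.53 (0.08 SE, 1.44-fold, limma adjusted p = 1.2e-07), and was lower on 8 of 8 slides. Its dimmer probe was lower by a similar amount (-0.45, limma adjusted p = 1.83e-04). BDH1, the other ketone member, had no probe.

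No gene of fatty acid activation or of the carnitine shuttle passed at its brightest probe. ACSL1, an acyl-CoA synthetase, ranged from 0.28 to 1.01 (median 0.63) at day 90 and from 0.49 to 1.60 (median 1.18) at day 110. Its difference of 0.44 ± 0.06 SE (limma adjusted p = 7.79e-08) missed the minimum size. Its medians went from 0.55 to 0.68 in LW, from 0.56 to 0.98 in MS, from 0.65 to 1.36 in LWMS and from 0.69 to 1.07 in MSLW. ACSL3 differed by 0.68 and ACSL5 by 0.51, with limma adjusted p of 0.0188 and 0.0218. Both passed without MS fetus 632 of day 110, the array that resembled the others least, at 0.83 and 0.61. ACSL4 differed by 0.20, and dimmer probes of ACSL1 (1), ACSL3 (1) and ACSL4 (2) passed.

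CPT1A, the entry point of long chains into mitochondria, ranged from 0.60 to 1.76 (median 1.25) at day 90 and from 0.19 to 2.74 (median 1.19) at day 110. The spread was wider at day 110 and the medians were close, with a difference of 0.05 ± 0.12 SE (limma adjusted p = 0.769). Its medians in LW, MS, LWMS and MSLW were 1.07, 1.40, 1.19 and 1.48 at day 90 and 1.45, 1.12, 0.75 and 1.05 at day 110. The medians were thus higher at day 110 in LW and lower in the other 3. The means differed from this, going from 1.37 to 1.55 in MS and staying at 1.14 in LWMS. They rose from 1.06 to 1.44 in LW and fell from 1.41 to 1.05 in MSLW. CPT2, which releases the chain on the inner side, ranged from -1.91 to -0.80 (median -1.16) and later from -1.42 to -0.56 (median -0.93), a difference of 0.22 ± 0.05 SE (limma adjusted p = 9.05e-05). Its medians were -1.39, -1.04, -1.12 and -1.12 in LW, MS, LWMS and MSLW at day 90 and -1.05, -0.85, -0.91 and -1.04 at day 110. SLC25A20, the carnitine carrier, differed by 0.34 (limma adjusted p = 0.0148), CRAT by 0.18 and CROT by -0.01. CPT1B, the muscle form, differed by -0.36 (limma adjusted p = 0.00602), and of its 5 probes O14505, which the array also annotates to the neighbouring choline kinase, was lower past the minimum size at -0.54. The receptor PPARA ranged from -4.24 to -2.19 (median -3.08) at day 90 and from -3.62 to -2.05 (median -2.95) at day 110. Its difference was 0.29 ± 0.11 SE (limma adjusted p = 0.0277), and PPARD differed by 0.18 (limma adjusted p = 0.121). PPARA medians in LW, MS, LWMS and MSLW were -2.98, -3.14, -3.44 and -2.84 at day 90 and -2.93, -3.14, -2.59 and -2.53 at day 110.

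**Figure D2:**
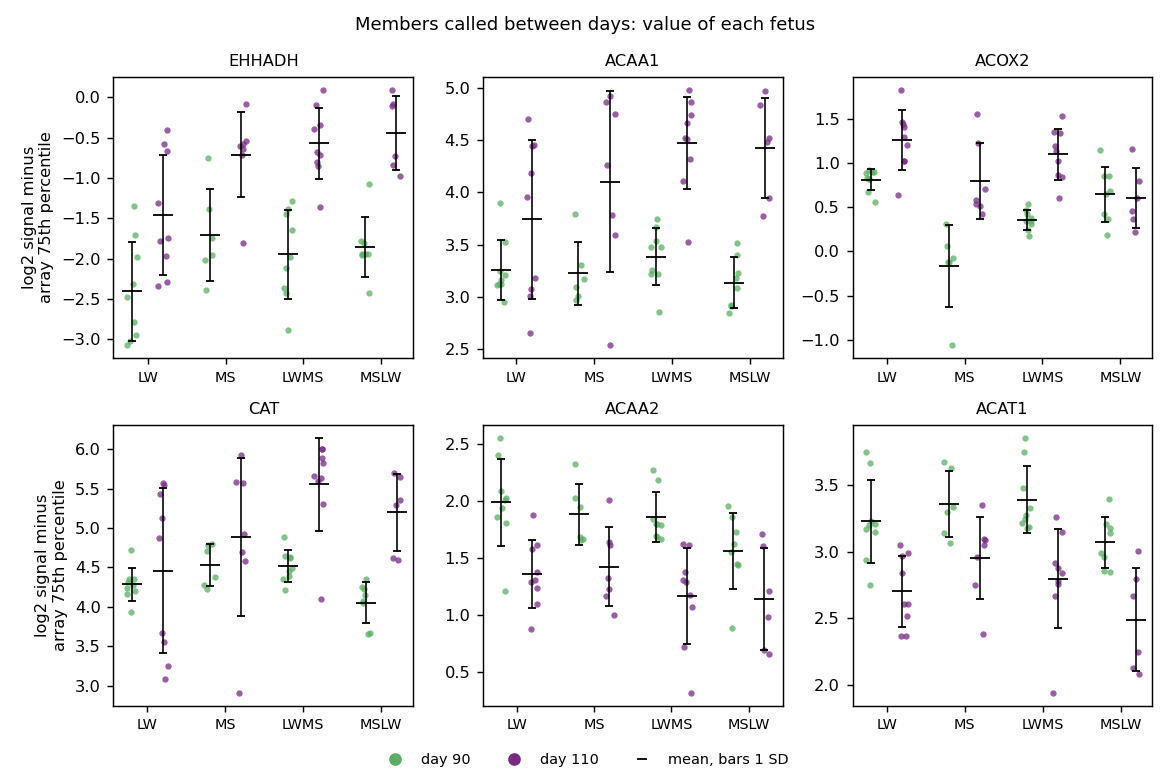
Value of each fetus (log2 signal minus the 75th percentile of its array) for the 6 genes that changed between days, by genotype, with day 90 in green and day 110 in purple. Black bars are the mean and 1 SD. EHHADH, ACAA1 and CAT do not overlap between days in MSLW. Several day 110 fetuses of LW lie below the day 90 range of CAT, and of MS only fetus 632 does.

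Taken one genotype at a time, EHHADH changed at one probe or both in each of the 4. In LWMS 14 of 116 member probes changed (12.1%), 12 higher and 2 lower, close to the 9.86% of all tested probes (4.18% higher and 5.69% lower), a share that was also the highest of the 4 genotypes. In LW, 6 changed, 2 higher and 4 lower, against 4.76% of all probes (2.23% and 2.53%). In MS it was 4, 3 higher and 1 lower, against 3.12% (1.62% and 1.51%), and in MSLW 5, all higher, against 5.43% (2.45% and 2.97%). By genes, 8 changed in LWMS, namely ACSL1 (0.74), ACOX2 (0.74), EHHADH (1.38), HSD17B4 (0.55), ACAA1 (1.08) and CAT (1.03) upward and ACAA2 and ACAT1 downward, by 0.70 and 0.59 in size. In LW they were EHHADH (0.95), ACAA2 (-0.63), ACAT1 (-0.52) and DECR1 (-0.65). In MS the brightest probe of ACOX2 (0.96) passed, and in MSLW those of EHHADH (1.42) and ACAA1 (1.29). At other probes EHHADH (1.15), ACOX2 (0.80) and ACAT1 (-0.84) passed in MS, and EHHADH (1.45) and CRAT (0.58 and 0.52) in MSLW. Both of these CRAT probes have the same 60 bases. Without LW fetuses 484 (day 90) and 469 (day 110), 1 member probe passed in LW, O9867 of EHHADH at 1.21, against 3.70% of all tested probes. The brightest probes that no longer passed there lay at 0.91 for EHHADH, -0.61 for ACAA2, -0.62 for DECR1 and -0.45 for ACAT1, with limma adjusted p between 0.0165 and 0.0477. With the 2 MS arrays of low correlation left out as well, 3 member probes passed in LW, O9867 and both DECR1 probes that passed with all fetuses (-0.64 and -0.62), against 4.87% of all tested probes. Median centring left 9 member probes higher and 0 lower in LWMS, 1 and 0 in LW, 2 and 0 in MS, and 3 and 0 in MSLW. With it the median of all tested probes was 0.1 in LWMS, -0.03 in LW, 0.1 in MS and -0.06 in MSLW. How all probes split with it is not given here. The days did not overlap for 3 of 36 genes in LWMS (ACSL1, ACOX2 and ACAA2), 3 in MSLW (EHHADH, ACAA1 and CAT), 1 in MS (ACOX2) and 0 in LW. The corresponding shares of all tested probes were 3.05%, 4.28%, 2.19% and 1.23%. With the genotypes put together, no gene separated the days, and 0.0691% of all tested probes did.

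**Figure D3:**
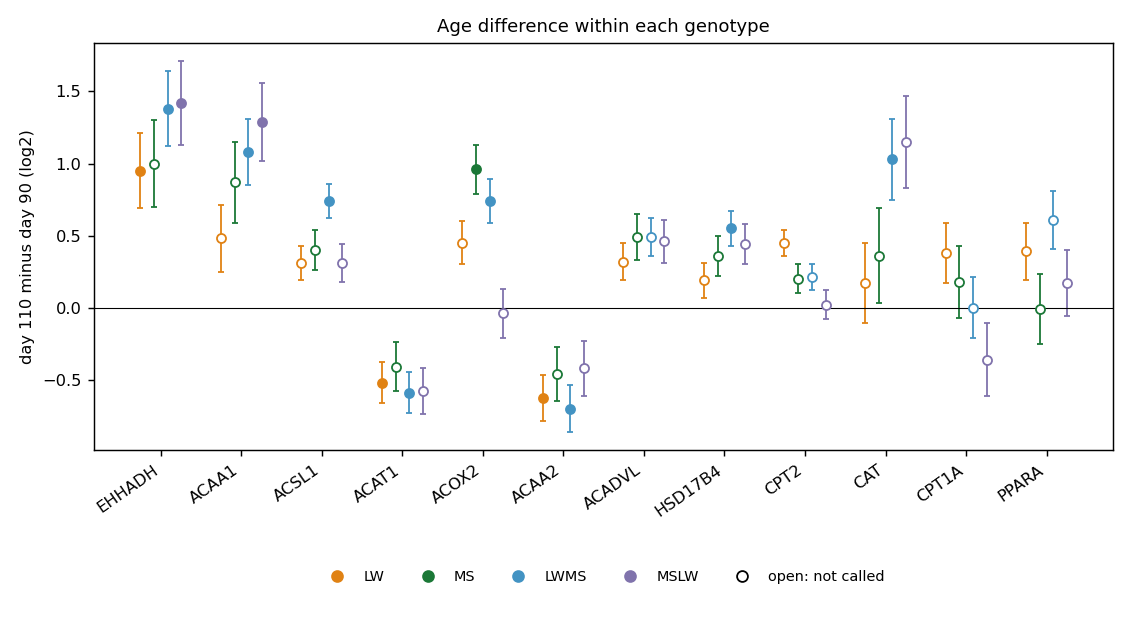
Day 110 minus day 90 (log2) within each genotype for 12 genes, with standard errors. Filled circles passed the test within that genotype. With all fetuses EHHADH, ACAA1 and CAT have their highest values in LWMS and MSLW, but ACAA1 in MS is at 1.14 without fetus 632, above LWMS (1.08). ACOX2 lies at -0.04 in MSLW.

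CAT differed by 0.17 in LW, 0.36 in MS, 1.03 in LWMS and 1.15 in MSLW, and ACAA1 by 0.48, 0.87, 1.08 and 1.29 in the same order. The MS values moved with 1 fetus: without 632 of day 110, CAT was at 0.68 in MS (limma adjusted p = 0.176) and ACAA1 at 1.14 (limma adjusted p = 0.00235), which for ACAA1 is above the LWMS value. EHHADH in MS went from 1.0 to 1.18 and then passed (limma adjusted p = 0.00779). The 11 enterocyte markers had a median age difference of 0.09 in LW, 0.16 in MS, 0.90 in LWMS and 0.80 in MSLW, and the 6 fibroblast markers of -0.33, -0.26, -0.53 and -0.68. Their part in these values was not tested. The difference between purebred and crossbred fetuses in these changes was not tested. For the interaction of breed and age in the pure breeds (MS minus LW), 0 of 116 member probes passed in limma or in a linear model without moderation, against 7 of all tested probes (0.0173%), and 2 member probes had an unadjusted p under 0.05. Any difference among the 8 groups (F test, adjusted p under 0.01) was found for 34 of 116 member probes and 28.8% of all tested probes. For sire breed by age, 0 of the member probes and 0 of all tested probes passed, with 2 member probes at an unadjusted p under 0.05. For sow breed by age, 1 member probe passed, that of ACOX2, against 0.388% of all tested probes.

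Between the pure breeds, 2 of the 36 genes differed at day 90. MS fetuses had a higher ECI2 signal and a lower ACOX2 signal than LW fetuses. The same limits on size and adjusted p were used, for MS minus LW, and 3.58% of all tested probes met them at day 90 and 4.99% at day 110. Of the member probes 3 of 116 passed at day 90, and 1 at day 110, that of ECI2. Without the 4 arrays of low correlation, EHHADH (1.06), ACADVL (0.55) and probes of CRAT (0.56) and CAT (1.13) also passed at day 110. ACOX2 (-0.57) passed there too. Without MS fetus 632 alone, ACADVL (0.54), a CRAT probe (0.52) and ACOX2 (-0.60) passed besides ECI2. The shares of all tested probes under these omissions are not given here, so these calls are not read further. Among the marker genes at day 90, 0 of 11 enterocyte markers differed, 1 of 6 fibroblast markers was lower and 1 of 2 erythroid markers higher in MS, and their part in these differences was not tested.

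ECI2, an enoyl-CoA isomerase that moves double bonds so that unsaturated chains can be oxidised, was read by 1 probe. Whether the stretch it reads differs in sequence between the breeds was not tested. At day 90 the lowest, median and highest values were -2.46, -1.28 and -1.01 in LW and -0.45, -0.16 and 0.02 in MS, with no overlap. The crossbreds lay at -1.16, -0.88 and -0.60 in LWMS and -1.94, -1.25 and -0.74 in MSLW. Every MS fetus was thus above every fetus of the other 3 genotypes at day 90. At day 110 LW read -2.33, -1.07 and -0.29 and MS -1.20, -0.17 and 0.21, now overlapping, while LWMS (-1.0, -0.60 and -0.04) and MSLW (-1.19, -0.63 and 0.10) had medians between the pure breeds. The MS minus LW difference was 1.32 ± 0.22 SE at day 90 (limma adjusted p = 1.45e-05) and 0.85 ± 0.21 SE at day 110 (limma adjusted p = 0.00373). Without MS fetus 632 the latter was 1.01, and when LW and MS were fitted alone it was 0.85 with a limma adjusted p of 0.0236.

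ACOX2 at day 90 read 0.56, 0.83 and 0.92 in LW against -1.06, -0.09 and 0.31 in MS, as lowest, median and highest value. LWMS fetuses lay at 0.18, 0.35 and 0.54 and MSLW fetuses at 0.19, 0.66 and 1.15. LW and MS did not overlap, and the LWMS and MSLW medians were between theirs. At day 110 the order of the medians was LW (1.30, range 0.64 to 1.83), LWMS (1.14, range 0.61 to 1.53), MS (0.58, range 0.42 to 1.56) and MSLW (0.54, range 0.22 to 1.16), and all these ranges overlapped. The MS minus LW difference was -0.98 ± 0.17 SE at day 90 (limma adjusted p = 2.14e-05), and -0.94 at the second probe. At day 110 it was -0.47 ± 0.16 SE (limma adjusted p = 0.0453), and -0.60 with an adjusted p of 0.00676 in limma without MS fetus 632. CPT2 was the third gene without overlap at day 90 (-1.91 to -1.17 in LW and -1.15 to -0.80 in MS), where 2.33% of all tested probes did not overlap. At day 110 no gene was without overlap, against 1.66% of all tested probes. The CPT2 difference of 0.45 ± 0.10 SE (limma adjusted p = 0.00105) missed the minimum size.

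**Figure D4:**
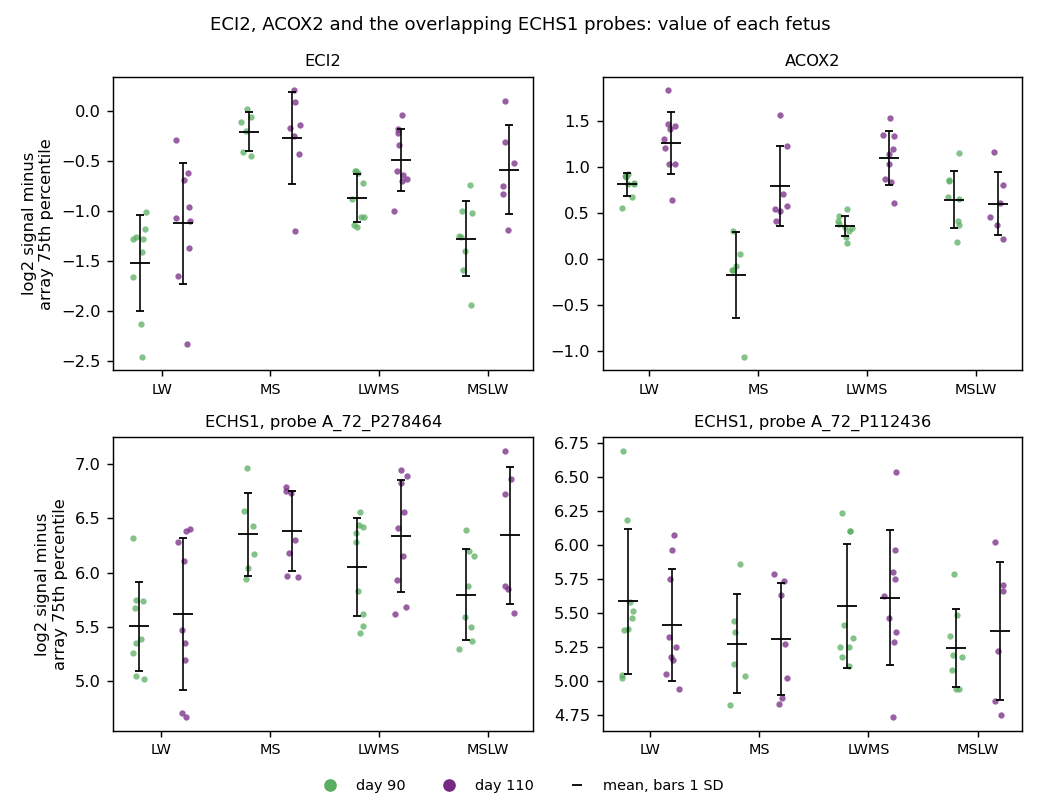
Value of each fetus (log2 signal minus the 75th percentile of its array) for ECI2, ACOX2 and a pair of overlapping ECHS1 probes, by genotype, with day 90 in green and day 110 in purple. Black bars are the mean and 1 SD. At day 90 MS lies above LW for ECI2 and below LW for ACOX2, and of the ECHS1 pair only A_72_P278464 has a higher mean in MS than in LW.

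ECHS1, the enoyl-CoA hydratase of short chains, gave breed values that depended on the probe, and none of its 4 probes passed at either day. At A_72_P278464, the brightest, LW fetuses had a median of 5.39 (range 5.02 to 6.32) and MS fetuses of 6.30 (range 5.94 to 6.96) at day 90, and 5.47 (range 4.67 to 6.40) and 6.30 (range 5.96 to 6.79) at day 110. MS minus LW was 0.85 ± 0.26 SE at day 90 and 0.77 ± 0.25 SE at day 110, with limma adjusted p of 0.0328 and 0.0356. A_72_P112436 overlaps it by 52 bases, and there the difference was -0.31 at day 90 and -0.10 at day 110. The remaining probes lay between -0.16 and -0.02. Within the overlap the 2 probes differ at 1 base, A16C, counted from the 5′ end of A_72_P112436, with its base first and that of A_72_P278464 last. A stretch of 29 bases around it is shown with the base in capitals.
ECHS1, A_72_P112436: agaatgtagcctgtAggtttcagaagcaa
ECHS1, A_72_P278464: agaatgtagcctgtCggtttcagaagcaa
Whether the base differs between the breeds was not tested.

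With all 4 genotypes, the breed of the sow and of the sire can be read separately. Sow breed, called at an adjusted p under 0.05, gave 16 of 116 member probes (12 higher and 4 lower with an MS sow), where 16.0% of all tested probes passed (7.26% higher and 8.71% lower). By genes it was 9 of 36. ECI2 (0.67), ECHS1 (0.46, at the probe described above), PPARD (0.33), ACOX3 (0.28), ACAT1 (0.25), CRAT, the carnitine acetyltransferase (0.23) and CPT2 (0.19) were higher with an MS sow, and ACOX2 (-0.31) and ETFDH (-0.19) were lower. With median centring the split was 22 higher and 0 lower, and ACOX2 was at -0.21 with a limma adjusted p of 0.0931. The median of all tested probes moved from 0.02 to 0.12 with that centring. Without MS fetus 632 the count was 30, and 21.3% of all tested probes passed. Sire breed gave 6 of 116 member probes (4 higher and 2 lower), where 6.95% of all tested probes passed (3.11% higher and 3.84% lower), which was 2 of 36 genes. These were again ECI2, 0.42 higher, and ACOX2, 0.41 lower in size, with an MS sire (limma adjusted p = 0.00672 and 2.32e-04). The split was 7 higher and 10 lower with the authors' processed values, 7 and 8 with quantile normalization, and 1 and 2 with median centring. The median of all tested probes was 0, -0.01 and -0.05 in these fits, in the same order. How all probes split by sow or sire under these settings is not given here. ECI2 and ACOX2 thus differed with either parent, in opposite directions. The pure breeds enter both parental comparisons, so these values partly restate the MS minus LW differences and are no separate support for them.

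For ACOX2 the difference by sow was -0.63 at day 90 and 0.01 at day 110, while that by sire was -0.35 and -0.48. The sow by age interaction was 0.65 (limma adjusted p = 0.0469). It did not pass without MS fetus 827 of day 90 (0.56, adjusted p = 0.0706) or without MS fetus 632 of day 110 (0.58, adjusted p = 0.0685) in limma. With these included, it did not pass under 8 of 14 alternatives, where it ranged from 0.41 to 0.80. For ECI2 the difference by sow was 0.86 at day 90 and 0.47 at day 110, and that by sire 0.46 and 0.38.

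Other genes of the pathway were taken from a list of 71, of which 55 had a tested probe. Between the days 5 rose and 2 fell, with a median difference of 0.08, and the background was the 13.8% given above. FABP1, the fatty acid binding protein of enterocytes and hepatocytes, rose by 2.55 ± 0.16 SE (limma adjusted p = 1.77e-19). PPARGC1A, a coactivator of mitochondrial genes, rose by 1.05 (limma adjusted p = 2.1e-15), PDK4, which restrains pyruvate oxidation, by 2.08 (limma adjusted p = 2.05e-14) and SLC27A2, a very long chain acyl-CoA synthetase, by 4.07 (limma adjusted p = 3.84e-13). ACOT8, a peroxisomal thioesterase, also rose (0.56). PLIN2, which coats lipid droplets, fell by 0.94, and ACAD11, an acyl-CoA dehydrogenase, by 0.74. SLC27A2 was well above background on 55 of 63 arrays, so its size is uncertain near the floor.

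OXCT1, which activates ketone bodies for use, differed by 0.11 between days and did not pass. Between the pure breeds at day 110, ACAD11 (0.73) and SLC16A1, a transporter of ketone bodies and lactate (0.55), were higher in MS than in LW.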

How the data were processed

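The authors deposited 1 Agilent Feature Extraction 10.10.1.1 scanner file per array, with linear spot intensity and quality flags (1-colour, Cy3), and a table that holds 39446 probes as log2 values the authors had processed. Of 61625 spots per array, 1319 were controls and were removed, and those marked as outliers became missing. From the processed intensity, log2 was taken, the 75th percentile of each array subtracted and spots of a probe averaged. Of all tested probes, 2775 lacked a value. The 63 fetuses were grouped by the labels. Means of 8 groups were fitted with limma 3.58.1 (R 4.3.3), with two-sided p-values adjusted by Benjamini-Hochberg over 40515 probes. The fit was tested on simulated data. Arrays lay on 8 slides, each holding both days, scanned on 1 day. Every member was named in its role. Values by group (ranges, or medians alone where the range is given by day) were given for the 10 genes with the largest moderated t between days, for those differing between pure breeds, and for CPT1A and PPARA. Members and lists were chosen with earlier results of these data known. The number of arrays limits precision. Replicates are separate fetuses, some of which share a litter. Some genes of the wider pathway list are not reported here. Alternatives are given at the end.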

Additional observations from a re-analysis of the deposited data

Results flagged for a closer look

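In 104 groups of 6 to 9 fetuses (13 genes in 8 groups), 8 had a highest or lowest fetus set apart from the rest by Dixon's criterion, which chance gives in about 1 of 20 groups. Fetus 632 (MS, day 110) was the lowest of its group for EHHADH (-1.81, the next at -0.72), ACADVL (1.11, the next at 2.18) and HSD17B4 (1.53, the next at 2.23), and its array had the lowest median correlation with the others (0.907). Fetus 827 (MS, day 90) was low for ACOX2 (-1.06, the next at -0.12). Fetus 609 (LWMS, day 110) was low for CAT (4.10, the next at 5.30), fetus 611 (LWMS, day 110) for ACAT1 (1.94, the next at 2.67) and fetus 852 (LW, day 110) for CPT2 (-1.29, the next at -1.07). Fetus 533 (LWMS, day 90) was high for ACSL1 (0.83, the next at 0.67). The difference of ACOX2 by sow breed changed between the days, by 0.65, but this did not pass under 8 of 14 alternatives.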

How the results depend on the processing

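Counts below are member probes that passed, under 1 change of processing at a time. The share of all tested probes under each change is not printed beside them. A moved count is therefore no result about the members. For the comparisons between days they became 31 over all genotypes, 10 in MS, 32 in LWMS and 20 in MSLW with array weights, which down-weight the arrays that fit worst, and array weights also gave 39 for MS against LW at day 110, 60 for sow breed, 22 for sire breed and 68 for any difference. Median centring gave 1 in LW, 2 in MS, 9 in LWMS, 3 in MSLW and 3 for sire breed. No filter on dim probes gave 3 in LW, 1 in MS and 0 for sow breed by age. The authors' processed values gave 9 in MSLW, 9 for sow breed, 17 for sire breed and 0 for sow breed by age. Quantile normalization gave 9 in MSLW, 8 for sow breed, 15 for sire breed and 0 for sow breed by age. With slide as a block there were 27 for sow breed, 13 for sire breed and 0 for sow breed by age. Requiring signal on all arrays gave 8 in MSLW, and dropping the minimum size 36 over all genotypes. The pure breeds fitted alone gave 0 for MS against LW at day 110, 1 in LW and 1 in MS. Without LW fetuses 484 and 469, the counts were 2 for MS against LW at day 110, 10 for sire breed and 1 for age in LW. Chosen after seeing the data, leaving out the 4 arrays of lowest correlation gave 3 in LW, 11 in MSLW, 8 for MS against LW at day 110, 36 for sow breed and 11 for sire breed. Leaving out MS fetus 827 of day 90 or MS fetus 632 of day 110 gave 2 to 6 in MS, 4 to 11 in MSLW, 1 to 5 for MS against LW at day 110, 12 to 30 for sow breed and 0 for sow breed by age. The cause of these shifts was not tested. All other counts stayed within 1.5 times the reported one.

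Among single genes, those near 0 between days changed sign. CPT1A was at -0.06 with array weights and CRAT at -0.07 with the authors' values. CROT was at 0.04 with median centring, 0.01 with slide as a block, 0.05 with array weights, 0.02 without the 4 arrays, 0.07 over all its probes and 0.05 without fetus 632. HADH was at 0.05 with median centring, 0.09 with array weights, 0.01 without LW fetuses 484 and 469, 0.06 without the 4 arrays, 0.00 over its probes and 0.02 to 0.07 without fetus 827 or 632. Over all its probes HADHA was at 0.12 and HADHB at 0.03, and HADHB at 0.00 with array weights. ETFA was at -0.04 with the authors' values, -0.01 with normexp, -0.04 with quantile normalization and -0.01 over its probes, and ETFDH at 0.05 with median centring. EHHADH, ACAA1 and CAT passed between days under all 14 alternatives run on them, and ECI2 and ACOX2 passed between the pure breeds at day 90 under all 15. Between days ACOX2 did not reach the minimum size under 5, ACAT1 under 4 and ACAA2 under 1 of the 14. Median centring moved the median of all probes by 0.13 for age in MS and 0.14 for age in LWMS, by 0.13 for MS against LW at day 110, by 0.15 for breed by age and by 0.16 for sow breed by age, and no filter moved it by -0.15 for age in LWMS. Probes near background have the least certain sizes. No paired analysis was possible because each fetus number occurs once and sows are not named in the labels used here. Slides, which hold both days, served as the block instead.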
